A study of Homo sapiens with 6 samples.

Results

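Immediate early genes are switched on within minutes of a growth signal, without new protein synthesis. The 10 described here, EGR1, EGR2, EGR3, NR4A1, MYC, IER2, IER3, DUSP1, DUSP2 and ZFP36, are induced by serum and by MAP kinases and lie outside the FOS/JUN family. They were chosen by name, with earlier results of these data known. Matching Ensembl gene IDs to symbols gave 10 of the 60612 gene IDs counted. All 10 passed the filter on low counts and were among the 15395 genes tested.

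RNA-seq was performed in KO52, an acute myeloid leukaemia cell line with the genotype CEBPA double mutant. Cells of every group were transduced with the doxycycline-inducible lentiviral vector pCW57.1. The EV group (n = 2) carried the empty vector, the dnCEBP group (n = 2) a dominant negative C/EBP peptide and the dnFOS group (n = 2) a dominant negative FOS peptide. Both peptides pair with the leucine zippers of their target family and keep it off DNA, and the study used them to ask what C/EBP and AP-1 factors do in this leukaemia. Cells were grown in Alpha MEM with fetal calf serum, and per the study's text doxycycline was given and cells that carried GFP were sorted before RNA was taken. The labels name no acute growth stimulus. The groups are all of 1 cell line, and nothing in the labels says whether the pair of libraries in a group came from separate cultures.

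Signals from growth factor receptors reach these genes through RAS and the ERK kinases, which activate the ternary complex factors that sit with SRF on CArG boxes, and through kinases that phosphorylate CREB on cAMP response elements (CRE). The products then act back on the response: EGR1 to EGR3 and NR4A1 are transcription factors, DUSP1 and DUSP2 are nuclear phosphatases that inactivate MAP kinases, and ZFP36 destabilises mRNAs with AU-rich elements. AP-1, the FOS and JUN dimer, is made in the same early wave.

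The upstream DNA of EGR1, EGR2 and DUSP1 is shown because it holds the elements through which this class of gene is known to be read. Each line gives the 250 bases before a RefSeq start site (RefSeq, GRCh38.p14), 5′ to 3′ on the gene's strand, with motif matches in capitals. EGR1 is chr5:138465229-138465478 on the plus strand, EGR2 is chr10:62816367-62816616 on the minus strand, before the most downstream of its 3 listed start sites, and DUSP1 is chr5:172771196-172771445 on the minus strand.
EGR1: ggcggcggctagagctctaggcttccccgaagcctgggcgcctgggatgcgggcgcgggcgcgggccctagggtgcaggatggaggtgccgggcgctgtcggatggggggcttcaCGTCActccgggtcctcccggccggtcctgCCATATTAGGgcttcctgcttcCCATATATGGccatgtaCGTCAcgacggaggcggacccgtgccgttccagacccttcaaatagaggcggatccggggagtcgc
EGR2: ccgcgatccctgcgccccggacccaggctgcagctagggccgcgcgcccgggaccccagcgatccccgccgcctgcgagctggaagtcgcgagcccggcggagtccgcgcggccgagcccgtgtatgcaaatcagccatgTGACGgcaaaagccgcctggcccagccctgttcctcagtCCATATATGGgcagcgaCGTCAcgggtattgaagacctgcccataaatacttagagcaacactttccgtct
DUSP1: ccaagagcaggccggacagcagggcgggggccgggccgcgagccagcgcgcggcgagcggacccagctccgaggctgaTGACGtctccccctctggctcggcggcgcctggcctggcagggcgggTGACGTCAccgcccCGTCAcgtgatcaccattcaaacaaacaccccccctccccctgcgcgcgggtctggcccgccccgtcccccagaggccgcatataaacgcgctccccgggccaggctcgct
The 10-base capitals in EGR1 and EGR2 are CArG boxes, the 8-base run TGACGTCA in DUSP1 is a full CRE, and the 5-base capitals are its core, TGACG, read on either strand and counted also inside a full CRE.

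The EGR1 window held 2 CArG boxes, from -105 to -96 and from -83 to -74 relative to the start site, and the EGR2 window 1, from -71 to -62. A CArG box stood in 1.16% of 35116 windows of this length. The full CRE of DUSP1 lay from -125 to -118, and such a site stood in 1.65% of windows. The TGACG core, present in 21.2% of windows, was found 2 times in EGR1, 2 times in the EGR2 window shown, 4 times in DUSP1 and 1 time in IER2. None of the motifs searched was found in the windows of DUSP2 or ZFP36, in the 2 windows of NR4A1 or in the other 2 of EGR2. The AP-1 site TGACTCA, in 4.2% of windows, and the C/EBP site TTGCNNAA, in 9.05%, had no match in any of these windows, which says only that these letters were not there. No window of MYC, EGR3 or IER3 was examined for motifs, so nothing is said of their upstream DNA.

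The libraries held 9862994 to 27663179 counts, and the dnFOS pair was the shallowest, at 14583615 and 9862994. At 3 counts, the limit a count of 0 allows, the floor was 0.111 to 0.29 CPM (counts scaled to a fixed library size, with TMM factors) and covers counting error only. All 8 myeloid markers were detected, with summed levels of 1028.6 and 1093.9 CPM in EV, as against 954.7 and 955.2 for dnCEBP and 805.3 and 831.5 for dnFOS. In dnCEBP against EV 2 of the 8 were called (Benjamini-Hochberg adjusted p under 0.05 by edgeR's quasi-likelihood test), both lower, where 0.448% of all genes tested were called lower. The fitted changes of the 8 were split, 4 below 0 and 4 above 0. PTPRC averaged 399.7 CPM in EV and 491.0 CPM in dnCEBP. DESeq2 called 1 of the 8 higher and 2 lower, and limma-voom 1 higher and 3 lower. MPO, myeloperoxidase, was at 216.6 ± 31.9 CPM in EV (SD, n = 2) and 58.2 ± 7.43 CPM in dnCEBP (log2 fold change -1.89 ± 0.10 SE, adjusted p = 5.03e-13), and ANPEP differed by -0.37 ± 0.09 (adjusted p = 0.0254), a call lost without EV replicate 1, EV replicate 2 or dnCEBP replicate 2 and when the trend on exonic GC content and length was removed. In dnFOS against EV 3 of the 8 were called lower, ANPEP (-0.58 ± 0.09, adjusted p = 4.36e-05), MPO (-0.56 ± 0.10, adjusted p = 0.000273) and PTPRC (-0.33 ± 0.08, adjusted p = 0.00663), the last lost without EV replicate 1. Over all genes tested, 7.76% were called lower in dnFOS against EV. Of the markers of other cell types, MS4A1 of B cells and CDH1 of epithelial cells were at 0 in every library. The T-cell marker CD3D and the epithelial marker EPCAM were expressed in all 6 libraries, the former at 90.7 to 147.5 CPM and the latter at 27.7 to 37.6 CPM, while the other T-cell marker, CD3E, had 0 to 4 counts and was not tested. CD3D was called lower in dnFOS than EV (-0.28 ± 0.09, adjusted p = 0.0287), a call lost with library totals and without EV replicate 1, EV replicate 2 or dnFOS replicate 2. Summed levels of the list were 146.3 and 156.1 CPM in EV, as against 175.4 and 182.5 for dnCEBP and 130.6 and 136.2 for dnFOS. In bulk RNA, fewer expressing cells and less RNA per cell cannot be told apart.

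Per kilobase of exon, MYC stood far above the rest in EV cells at 74.6 ± 4.12 CPM per kb (SD, n = 2). IER2 followed at 10.6 CPM per kb and DUSP1 at 9.08. DUSP2, at 5.95 CPM per kb, and EGR1, at 5.49, overlapped between libraries and could not be ordered, nor could ZFP36, at 3.53, and NR4A1, at 2.91. EGR2, EGR3 and IER3 were lowest, at 0.739, 0.331 and 0.297 CPM per kb, the last 2 overlapping. The order depends on the merged length of all annotated exons, 7295 bases for NR4A1 against 2019 for DUSP1 and 2010 for ZFP36. In CPM, NR4A1 averaged 21.2 in EV, above DUSP1 at 18.3, EGR1 at 17.2, DUSP2 at 11.5 and ZFP36 at 7.10. In dnFOS cells the order ran MYC, IER2, DUSP1, DUSP2, ZFP36, EGR1, NR4A1, EGR2, EGR3 and IER3, with EGR1 at 3.04 and NR4A1 at 1.39 CPM per kb. ZFP36 and EGR1 overlapped there, and so did EGR3 and IER3. In dnCEBP cells NR4A1 stood at 3.53 CPM per kb, between DUSP2 at 4.19 and ZFP36 at 3.26, and overlapped both. There IER2 and DUSP1 overlapped too, as did EGR1 and DUSP2, and EGR3 and IER3.

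**Figure D1:**
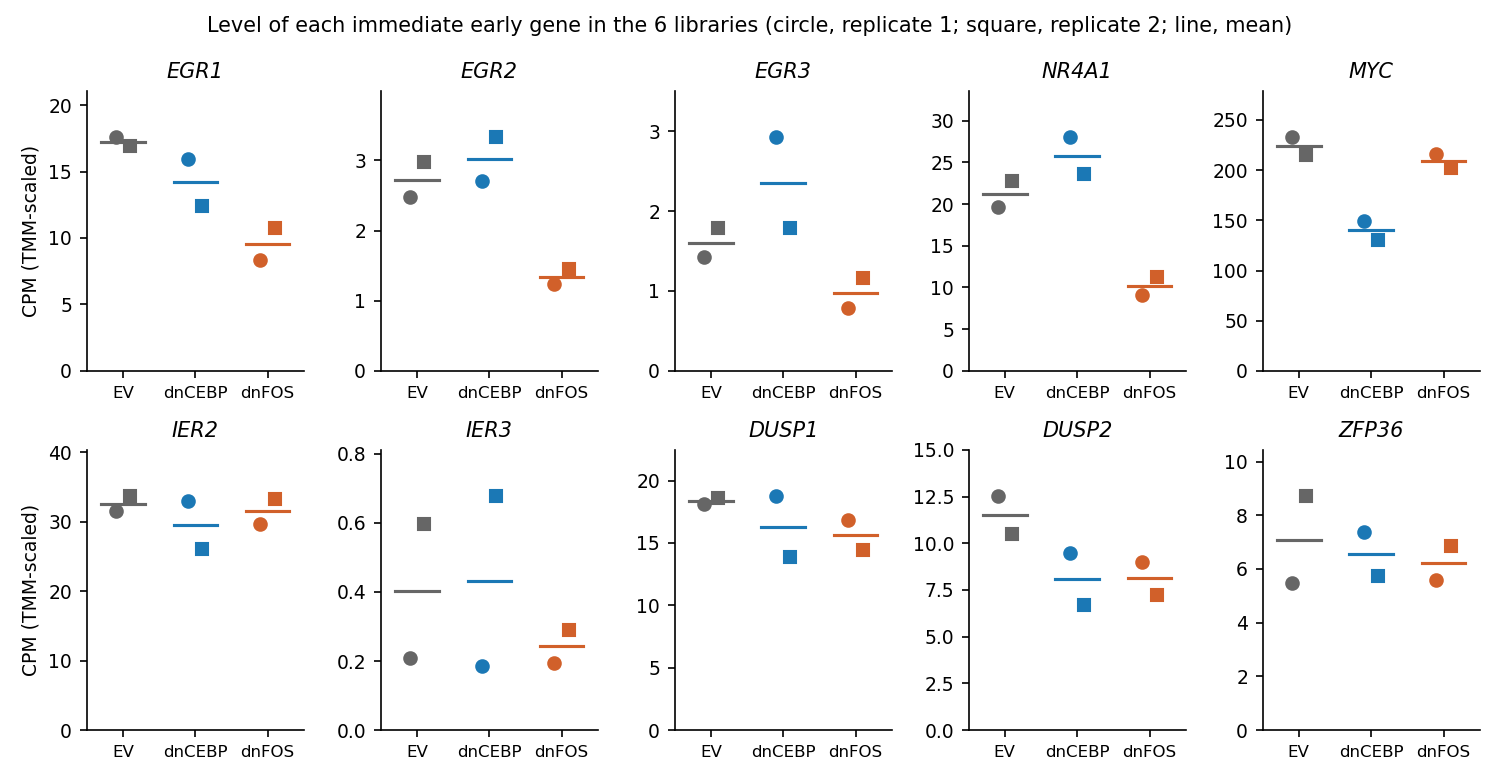
Level of each gene (CPM, TMM-scaled) in the 2 libraries of EV, dnCEBP and dnFOS, with a line at the group mean and a separate scale from 0 for each gene. EGR1, EGR2, EGR3 and NR4A1 were lowest in both dnFOS libraries, MYC was lowest in both dnCEBP libraries, and IER2 and ZFP36 overlapped between groups.

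The zinc finger factors of the EGR family bind GC-rich sites at growth-regulated promoters. EGR1 (ENSG00000120738, GRCh38 chromosome 5, 138465490 to 138469315, 2 exons) was counted at 17.6 and 16.9 CPM in EV, 15.9 and 12.4 CPM in dnCEBP and 8.33 and 10.7 CPM in dnFOS. All dnFOS values lay below all others. EGR1 fell 1.83-fold in dnFOS against EV (log2 fold change -0.87 ± 0.17 SE, adjusted p = 0.000879), and this call held under every one of 15 alternative fits without a replicate block. For dnCEBP against EV the log2 fold change was -0.28 ± 0.16 (adjusted p = 0.517), with both dnCEBP libraries below both EV libraries.

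EGR2 (ENSG00000122877, chromosome 10, 62811996 to 62919900), known from hindbrain and myeloid development, was much less abundant. It gave 2.48 and 2.98 CPM in EV, 2.70 and 3.33 CPM in dnCEBP and 1.24 and 1.45 CPM in dnFOS, the last from only 19 and 15 counts. The dnFOS pair did not overlap the other 4 libraries. EGR2 fell 2.04-fold in dnFOS against EV (-1.03 ± 0.35, adjusted p = 0.0462), but 11 of the 15 alternative fits lost that call, those without any 1 of the 6 libraries included (adjusted p from 0.0268 to 0.213). The sign was negative in every fit. For dnCEBP the difference from EV was 0.14 ± 0.29 (adjusted p = 0.901).

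EGR3 (ENSG00000179388, chromosome 8, 22687659 to 22693302) was the lowest of the family. EV libraries held 1.43 and 1.79 CPM, dnCEBP libraries 2.92 and 1.79 CPM and dnFOS libraries 0.781 and 1.16 CPM, from 12 counts each. The dnFOS values lay below the EV values, but the fitted difference of -0.76 ± 0.44 was not called (adjusted p = 0.276). The dnCEBP difference from EV was 0.57 ± 0.37 (adjusted p = 0.581), with dnCEBP replicate 1 well above its partner.

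NR4A1, also named NUR77, is an orphan nuclear receptor that acts in myeloid cells as a differentiation and survival factor. The gene (ENSG00000123358, chromosome 12, 52022832 to 52059507, 11 exons) was at 19.6 and 22.8 CPM in EV, 28.0 and 23.6 CPM in dnCEBP and 9.12 and 11.2 CPM in dnFOS. Both dnFOS libraries were below all others, and both dnCEBP libraries above EV. NR4A1 fell 2.11-fold in dnFOS against EV (-1.07 ± 0.16, adjusted p = 2.46e-05), the smallest p of the 10 genes, and all 15 alternatives kept the call. In dnCEBP the difference from EV was 0.28 ± 0.14 (adjusted p = 0.413).

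MYC drives ribosome production and growth as a dimer with MAX. The gene (ENSG00000136997, chromosome 8, 127735434 to 127741434, 3 exons) was at 232.7 and 215.2 CPM in EV, 149.3 and 130.5 CPM in dnCEBP and 216.1 and 201.7 CPM in dnFOS. The dnCEBP pair was apart from the other 4 libraries, whereas EV and dnFOS overlapped. MYC fell 1.60-fold in dnCEBP against EV (-0.68 ± 0.09, adjusted p = 4.76e-05), and every alternative kept the call. In dnFOS against EV the difference was -0.10 ± 0.09 (adjusted p = 0.499).

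The phosphatases turn off the kinases that induced them. DUSP1 (ENSG00000120129, chromosome 5, 172768090 to 172771195), which dephosphorylates JNK, p38 and ERK, was at 18.1 and 18.6 CPM in EV, 18.7 and 13.9 CPM in dnCEBP and 16.9 and 14.4 CPM in dnFOS. Both dnFOS libraries lay below both EV libraries, but -0.22 ± 0.16 was not called (adjusted p = 0.386), nor was -0.16 ± 0.15 in dnCEBP (adjusted p = 0.730). DUSP2 (ENSG00000158050, chromosome 2, 96143166 to 96145440), a phosphatase of haematopoietic cells, was at 12.5 and 10.5 CPM in EV, 9.47 and 6.71 CPM in dnCEBP and 8.99 and 7.25 CPM in dnFOS. Both peptide groups lay below both EV libraries. The DUSP2 differences were -0.50 ± 0.19 in dnCEBP (adjusted p = 0.248) and -0.49 ± 0.20 in dnFOS (adjusted p = 0.0969), and neither was called.

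ZFP36, or tristetraprolin (ENSG00000128016, chromosome 19, 39406813 to 39409412), was at 5.50 and 8.70 CPM in EV, 7.36 and 5.74 CPM in dnCEBP and 5.60 and 6.86 CPM in dnFOS. The spread within EV covered every other library. Fitted differences were -0.10 ± 0.22 in dnCEBP (adjusted p = 0.903) and -0.20 ± 0.23 in dnFOS (adjusted p = 0.638).

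IER2, a small nuclear protein of the early response, gave 31.5 and 33.6 CPM in EV, 32.9 and 26.1 CPM in dnCEBP and 29.7 and 33.3 CPM in dnFOS. The 3 groups overlapped. The difference in dnFOS was -0.05 ± 0.13 (adjusted p = 0.827), and its sign turned when library totals alone set the scale or when the trend on GC content and length was removed. IER3, a survival factor also known as IEX-1, was close to the floor, with EV libraries at 5 and 13 counts, dnCEBP libraries at 5 and 14 and dnFOS libraries at 3 each, and it had adjusted p-values of 0.987 in dnCEBP and 0.671 in dnFOS against EV. No difference in IER3 was called at this depth, and its standard errors were wide, 0.80 in dnCEBP and 0.96 in dnFOS against EV. IER2 (ENSG00000160888, chromosome 19, 13150415 to 13154908) shares 30.8% of its exonic length with a gene on the opposite strand, IER3 (ENSG00000137331, chromosome 6, 30743199 to 30744554) 26.5%, NR4A1 10.3% and EGR3 3.4%. Since the use of strand in counting was not given in the sources used here, those values are uncertain to that extent, although the opposite genes held 0 or 1 counts in each library.

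Across the 10 genes, 3 were called in dnFOS against EV, all lower, where 15.0% of all genes tested were called and 7.76% were called lower. The EGR2 call among them was lost in 11 of the 15 alternative fits without a replicate block. All 10 fitted changes were below 0, against 49.6% of all genes, but that of IER2 turned positive with library totals, with the GC and length trend removed or without dnFOS replicate 1 (0.0303), and those of IER3 and ZFP36 (0.15 each) without EV replicate 2. Both dnFOS libraries lay below both EV libraries for 6 of the 10, EGR1, EGR2, EGR3, NR4A1, DUSP1 and DUSP2, against 28.4% of all genes. The median log2 fold change was -0.62 for the 10 genes and 0.004 over all genes. With library totals in place of TMM the median of all genes moved to 0.10, and that of the 10 genes to -0.52. Removal of the GC and length trend brought them closer, to -0.094 for all genes and -0.463 for the 10. Leaving out a library, the median of the 10 ran from -0.68 (dnFOS replicate 2) to -0.41 (EV replicate 2). For dnCEBP against EV only MYC was called, 1 of 10 where 1.07% of all genes were called and 0.448% called lower, and the median of the 10 was -0.12. With the GC and length trend removed that median was -0.00635, against 0.0217 for all genes. EGR1, DUSP2 and MYC, 3 of the 10, had both dnCEBP libraries below both EV libraries, against 20.9% of all genes. The 2 comparisons share the EV libraries. Some myeloid markers moved in both, with 3 of 8 called lower in dnFOS and 2 of 8, MPO among them, in dnCEBP. In dnCEBP 4 of the 8 fitted changes were above 0. The part of these markers in the changes of the 10 genes was not tested.

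**Figure D2:**
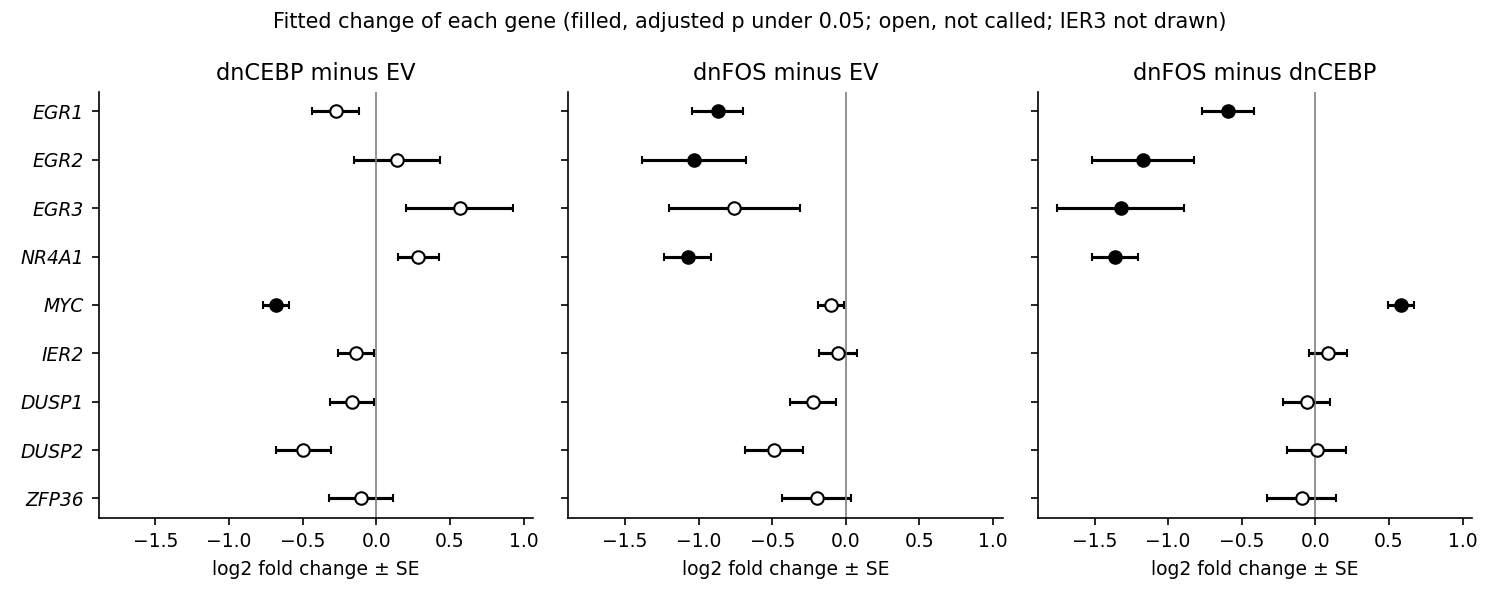
Fitted log2 fold change with its standard error (x axis) for the genes (y axis) in the 3 comparisons, filled where the adjusted p was under 0.05. IER3 is not drawn because its counts are at or near the floor. EGR1, EGR2 and NR4A1 were called lower in dnFOS than EV, and MYC only in the 2 comparisons that involve dnCEBP.

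Set directly against each other, dnFOS and dnCEBP differed at 5 of the 10 genes, 4 lower and 1 higher in dnFOS, where 14.7% of all genes were called, 7.84% lower and 6.83% higher. NR4A1 was 2.57-fold lower in dnFOS (-1.36 ± 0.16, adjusted p = 2.67e-07) and MYC 1.49-fold higher (0.58 ± 0.09, adjusted p = 2.75e-05), and both calls held under all 15 alternatives. Also lower in dnFOS were EGR3 (log2 fold change -1.32 ± 0.43, adjusted p = 0.0344), EGR2 (-1.17 ± 0.35, adjusted p = 0.0214) and EGR1 (-0.59 ± 0.17, adjusted p = 0.0192). Those 3 calls were less firm. EGR1 was lost with library totals (adjusted p = 0.0693), without dnCEBP replicate 1 (-0.40, adjusted p = 0.245) and without dnFOS replicate 1 (-0.41, adjusted p = 0.226). EGR2 was lost without dnCEBP replicate 2 (-1.02), dnFOS replicate 1 (-1.05) or dnFOS replicate 2 (-1.28), and EGR3 without dnCEBP replicate 1 (-0.91), dnFOS replicate 1 (-1.03) or dnFOS replicate 2 (-1.60). DESeq2 and limma-voom called neither EGR2 nor EGR3 there. With library totals EGR3 was also not called (adjusted p = 0.0551). DUSP1, DUSP2, ZFP36 and IER2 differed by -0.06 ± 0.16, 0.01 ± 0.20, -0.09 ± 0.23 and 0.09 ± 0.13, and none was called.

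Because FOS is made in the same early wave, the ratio of counts to FOS within a library was taken, a choice made after the values were seen. For NR4A1 this ratio was 0.886 and 0.784 in EV, as against 1.14 and 1.06 for dnCEBP and 0.295 and 0.431 for dnFOS. For EGR1 it was 0.794 and 0.581 in EV, as against 0.647 and 0.560 for dnCEBP and 0.270 and 0.413 for dnFOS. The dnFOS ratios did not overlap the others for either gene. The ratio of NR4A1 to IER2 was 0.622 and 0.679 in EV, as against 0.851 and 0.904 for dnCEBP and 0.307 and 0.337 for dnFOS. That of EGR1 to DUSP1 was 0.972 and 0.909 in EV, as against 0.852 and 0.892 for dnCEBP and 0.494 and 0.745 for dnFOS. With 2 libraries against 2, a two-sided exact permutation test cannot give a p below 0.333. These ratios do not depend on library scaling. The transcript made from the vector may itself be counted in part as FOS, which was not analysed here.

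**Figure D3:**
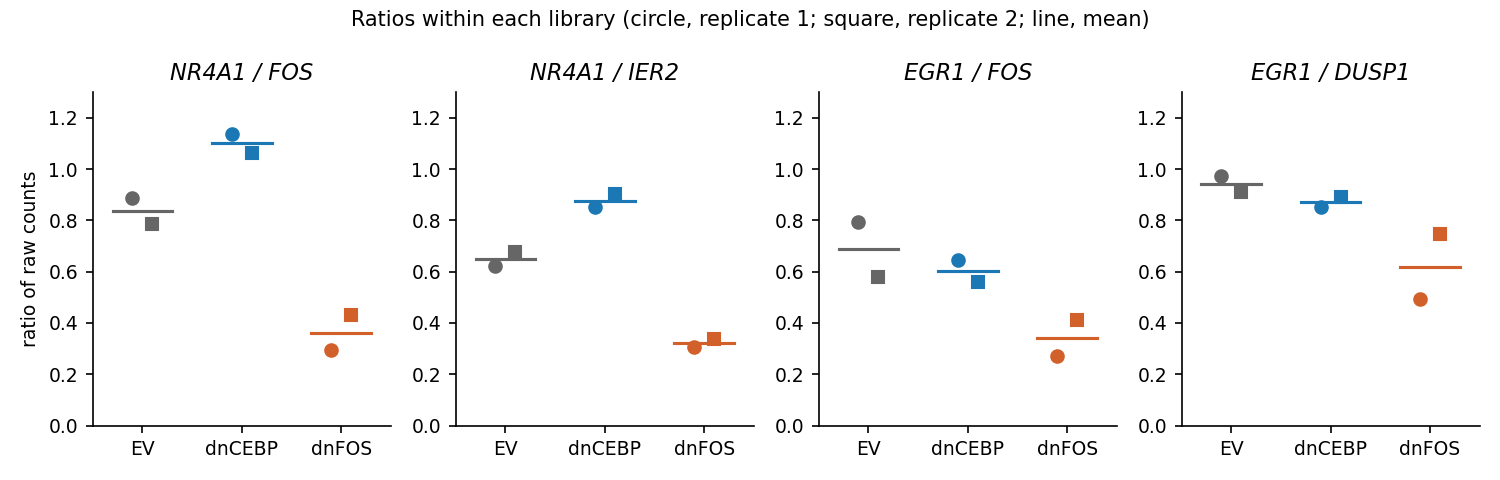
Ratio of raw counts of the named gene pairs within each library (y axis, from 0) for EV, dnCEBP and dnFOS, with a line at the group mean. NR4A1 to IER2 lay at 0.307 and 0.337 in dnFOS and at 0.622 or more in the other 4 libraries.

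The AP-1 genes were measured in the same libraries. FOS was at 22.2 and 29.1 CPM in EV and 30.9 and 26.0 CPM in dnFOS (0.16 ± 0.14, adjusted p = 0.488), and FOSB differed by 0.13 ± 0.17 (adjusted p = 0.688) and JUN by 0.37 ± 0.20 (adjusted p = 0.230). JUNB fell in dnFOS (log2 fold change -0.71 ± 0.19, adjusted p = 0.0105), a call lost without dnFOS replicate 1 (-0.53, adjusted p = 0.142). ATF3 also fell (-1.49 ± 0.46, adjusted p = 0.0272), a call lost without EV replicate 1 (-1.23) or dnFOS replicate 1 (adjusted p = 0.260), and not made by DESeq2 or limma-voom. JUNB and ATF3 made 25.0% of the list, where 7.76% of all genes were called lower. The other 6 of 8 AP-1 genes were not called in dnFOS against EV, and 0 of 8 were called by edgeR in dnCEBP against EV, where none had an unadjusted p under 0.05 and limma-voom and DESeq2 also called 0. The share of all genes called by edgeR in dnCEBP against EV was itself only 1.07%.

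A list of 42 further immediate early genes was read in the same fit. It was chosen with earlier results of these data known, so it is not independent evidence of a direction. Of the 35 tested, 13 fell and 1 rose in dnFOS against EV, so 37.1% were called lower, where 7.76% of all genes were called lower and 7.24% higher. The median log2 fold change was -0.67. The count of genes called lower ran from 11, without EV replicate 2, to 14 over the alternatives. PPP1R15A, or GADD34, which restores translation after stress, was at 81.8 and 86.6 CPM in EV and 33.8 and 33.0 CPM in dnFOS (-1.33 ± 0.10, adjusted p = 8.50e-11). NR4A2, a relative of NR4A1, fell from 6.25 and 9.06 CPM in EV to 3.91 and 2.80 CPM in dnFOS (-1.16 ± 0.24, adjusted p = 0.00137), and stood at 11.1 and 9.80 CPM in dnCEBP (0.45 ± 0.20, adjusted p = 0.352). NR4A3, a further relative, was scarce, with means of 0.349 CPM in EV and 0.355 CPM in dnFOS, and did not follow (-0.11 ± 0.85, adjusted p = 0.954). PTGS2, the inducible cyclooxygenase, fell (log2 fold change -1.03 ± 0.19, adjusted p = 0.000379). The only gene that rose, ZFP36L2, a paralogue of ZFP36, was named after its value was seen. It was at 164.1 and 178.6 CPM in EV and 189.4 and 256.2 CPM in dnFOS (0.38 ± 0.11, adjusted p = 0.0186), and the call was lost without EV replicate 1 (0.32) or dnFOS replicate 2 (0.14), while without dnFOS replicate 1 the value was 0.58. Removal of the GC and length trend, without a replicate block, also lost the call (0.39, adjusted p = 0.0805).

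In dnCEBP against EV, 0 of the same 35 genes were called by edgeR, with a smallest adjusted p of 0.205 and 7 genes at an unadjusted p under 0.05. Only 1.07% of all genes were called there, so a count of 0 is near the background. DESeq2 and limma-voom also called 0. Their median was 0.01. Set directly, 12 were lower and 1 higher in dnFOS than in dnCEBP, with a median of -0.49, where 7.84% of all genes were called lower and 6.83% higher. The 3 with the largest change were NR4A2 (-1.61 ± 0.23, adjusted p = 1.34e-05), PTGS2 (-1.39 ± 0.19, adjusted p = 3.30e-06) and TRIB1 (-1.63 ± 0.52, adjusted p = 0.0320), a pseudokinase that directs C/EBP proteins to degradation. The TRIB1 call was lost without any 1 of the dnCEBP or dnFOS libraries. It was also not made by DESeq2 (adjusted p = 0.0709) or limma-voom (adjusted p = 0.0759).

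NR4A1 had the smallest p in dnFOS against EV, and the genes most like it over the 6 libraries were sought. Likeness was the root mean square difference of log2 CPM, each centred on its mean, among 12806 genes with a mean of at least 1 CPM. PTGS2 was closest, at 0.0676 log2 units. LMNA, which encodes the nuclear lamins A and C, followed at 0.102, TRIB1 at 0.113, the circadian repressor BHLHE40 at 0.122 and the membrane protein gene EMP1 at 0.124. These genes were chosen for likeness to NR4A1 over the same 6 libraries, so a fall in dnFOS follows from the choice. Their differences are not independent evidence of a direction, and the adjusted p-values take no account of the choice. BHLHE40 differed by -1.02 in dnFOS against EV (adjusted p = 1.17e-09) and LMNA by -1.21 (adjusted p = 0.00113). TRIB1 and EMP1 were not called in dnFOS against EV (adjusted p = 0.0662 and 0.162). Among the 10 genes themselves, IER2 and DUSP1 were the most alike pair (0.141), and NR4A1 was nearest to EGR2 (0.185) and EGR3 (0.208).

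The kinases and promoter factors that feed these genes were read as a list. Of 17 genes of the ERK cascade, its downstream kinases and the SRF and CREB factors, 2 rose and 1 fell in dnFOS against EV, 17.6% called where 15.0% of all genes were, a share near the background. RPS6KA3, encoding the kinase RSK2, rose by 0.38 ± 0.09 (adjusted p = 0.00598) and ELK4, a ternary complex factor, by 0.37 ± 0.10 (adjusted p = 0.0135). MAPK3, encoding ERK1, fell (log2 fold change -0.48 ± 0.15, adjusted p = 0.0290). All 3 calls were lost with the trend on GC content and length removed, which left 0.13, 0.07 and -0.35, and 2 other genes of the list were then called lower and 0 higher. With library totals 3 were called higher and 0 lower. RPS6KA3 was also lost without EV replicate 2 or dnFOS replicate 2, ELK4 without EV replicate 1 or dnFOS replicate 2, and MAPK3 with library totals or without EV replicate 1, EV replicate 2 or dnFOS replicate 1. Of the 17, 0 were called in dnCEBP against EV by edgeR, DESeq2 or limma-voom, and 4 had an unadjusted p under 0.05. Among all genes edgeR called 1.07% in dnCEBP against EV. In dnFOS against dnCEBP 1 of 17 was called, RPS6KA5, encoding the kinase MSK1, which was lower (-0.30 ± 0.10, adjusted p = 0.0414), a call lost with library totals (adjusted p = 0.235), by DESeq2 and without EV replicate 1, either dnCEBP library or dnFOS replicate 1. That was 5.88% of the list, where 14.7% of all genes were called. The split there also turned with the scaling, to 3 higher and 0 lower with library totals and 0 higher and 5 lower with the trend removed.

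Of 8 further MAP kinase phosphatases, 6 were tested. DUSP4, which acts on nuclear ERK, was at 3.23 and 3.07 CPM in EV, 4.66 and 3.28 CPM in dnCEBP and 8.53 and 8.60 CPM in dnFOS. It rose in dnFOS against EV by 1.44 ± 0.24 (adjusted p = 0.000115), opposite in sign to DUSP1 and DUSP2, and was the 1 gene of the list called there. The call held under all alternatives. The share of the list's tested genes called there was 16.7%, near the 15.0% of all genes. Against dnCEBP, dnFOS was higher at DUSP4 (1.09 ± 0.23, adjusted p = 0.00140) and DUSP10 (0.34 ± 0.11, adjusted p = 0.0369) and lower at DUSP16 (-0.79 ± 0.27, adjusted p = 0.0473). The DUSP10 call was lost without EV replicate 2, either dnCEBP library or dnFOS replicate 1, and the DUSP16 call without any 1 of the dnCEBP or dnFOS libraries. DUSP10 was also lost without a filter, by DESeq2 (adjusted p = 0.0635) and with the GC and length trend removed (adjusted p = 0.116). DUSP16 was also lost without a filter, with library totals, by DESeq2 (adjusted p = 0.107) and by limma-voom (adjusted p = 0.0881). Of the 6, 0 were called in dnCEBP against EV by edgeR, DESeq2 or limma-voom, and 2 had an unadjusted p under 0.05. Among all genes edgeR called 1.07% in dnCEBP against EV.

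The partners of the encoded proteins were tested as 12 genes, of which 2, or 16.7%, were called in dnFOS against EV, near the 15.0% of all genes. MXI1, which competes with MYC for MAX, was at 56.5 and 52.8 CPM in EV and 36.9 and 33.6 CPM in dnFOS (-0.63 ± 0.11, adjusted p = 0.000197). MLX, the related partner of MXD and Mondo proteins, fell (log2 fold change -0.49 ± 0.11, adjusted p = 0.00342). No other partner was called in dnFOS against EV, and in dnCEBP against EV 0 of 12 were called by edgeR, DESeq2 or limma-voom, with none at an unadjusted p under 0.05. Among all genes edgeR called 1.07% in dnCEBP against EV. RXRA, a receptor that pairs with NR4A1 and NR4A2, was higher in dnFOS than in dnCEBP by 0.52 ± 0.12 (adjusted p = 0.00334), a call lost without dnCEBP replicate 2 (0.34), while MXI1 (-0.71) and MLX (-0.38) were lower. The MLX call there was lost with library totals, without dnCEBP replicate 2 or without dnFOS replicate 2.

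Of 22 known targets of MYC, 3 fell in dnCEBP against EV, 13.6% where 0.448% of all genes were called lower. They act in ribosome production: RRS1 (-0.72 ± 0.15, adjusted p = 0.00831), FBL, the rRNA methyltransferase fibrillarin (-0.42 ± 0.09, adjusted p = 0.0153), and NCL, nucleolin (-0.37 ± 0.09, adjusted p = 0.0238). RRS1 was at 16.9 and 17.3 CPM in EV, 10.5 and 10.3 CPM in dnCEBP and 17.7 and 17.0 CPM in dnFOS. The list's median was -0.08, and none of the 3 calls held without EV replicate 2 or without dnCEBP replicate 2, when 0 were called, and NCL was also not called without EV replicate 1. In dnFOS against EV EIF4E (0.40 ± 0.10, adjusted p = 0.00444) and POLR1B (0.32 ± 0.09, adjusted p = 0.0193) rose and LDHA fell (-0.26 ± 0.08, adjusted p = 0.0311), 13.6% of the list where 15.0% of all genes were called. The balance turned with the scaling, from 4 higher and 0 lower with library totals to 0 higher and 3 lower with the GC and length trend removed. LDHA was not called without any 1 of the EV or dnFOS libraries, POLR1B without either EV library or dnFOS replicate 1, and EIF4E without EV replicate 2 (0.36) or dnFOS replicate 2 (0.27). EIF4E and POLR1B were also not called with the GC and length trend removed. Directly, 5 were higher and 1 lower in dnFOS than in dnCEBP, 27.3% called where 14.7% of all genes were, a balance of 10 higher and 0 lower with library totals, 5 and 2 with the GC and length trend removed and 3 and 0 without dnCEBP replicate 2. The differences included RRS1 by 0.73 ± 0.15 (adjusted p = 0.00107), NCL by 0.51 ± 0.09 (adjusted p = 0.000104) and CAD, of pyrimidine synthesis, by 0.50 ± 0.11 (adjusted p = 0.00287, lost without dnCEBP replicate 2 or, at 0.32, dnFOS replicate 1).

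ZFP36 binds and destabilises cytokine mRNAs, and 11 of 14 such targets were tested. Chemokine genes on this list were also singled out by the study in these libraries, so the list is not independent evidence of a direction, and IER3 and PTGS2 stand on other lists here too. In dnFOS against EV 6 fell and none rose, 54.5% called lower against 7.76% of all genes, with a median of -0.83. The neutrophil chemokine gene CXCL8 was at 249.3 and 261.5 CPM in EV, 291.6 and 282.7 CPM in dnCEBP and 46.6 and 51.9 CPM in dnFOS (-2.38 ± 0.09, adjusted p = 1.27e-17). CCL3 fell (log2 fold change -2.00 ± 0.28, adjusted p = 1.09e-05), a value that is uncertain because a near-identical copy could share its reads. In dnCEBP against EV TNF, an inflammatory cytokine, rose by 0.89 ± 0.21 (adjusted p = 0.0306), and that call was lost without EV replicate 2 (0.56), dnCEBP replicate 1 (0.86) or dnCEBP replicate 2 (0.91), with library totals and by DESeq2. The count of the list called lower in dnFOS against dnCEBP was 7, with CXCL8 at -2.55 and CCL3 at -1.65. That was 63.6% of those tested, where 7.84% of all genes were called lower.

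**Figure D4:**
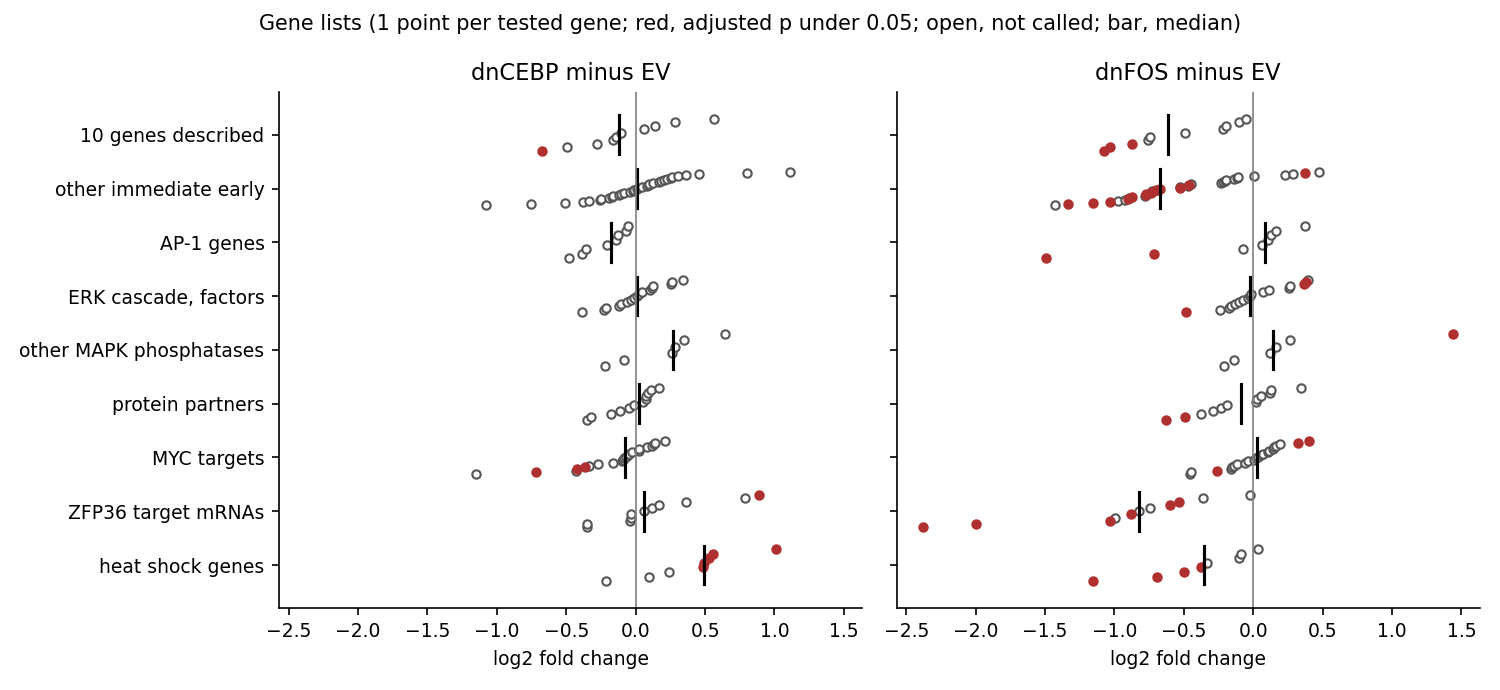
Log2 fold change (x axis) of every tested gene of each list (rows) in dnCEBP minus EV and dnFOS minus EV, red where the adjusted p was under 0.05, with a bar at the list median. In dnFOS the medians of the 10 genes, the other immediate early genes and the ZFP36 target mRNAs were -0.62, -0.67 and -0.83, and in dnCEBP they were -0.12, 0.01 and 0.06.

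Heat shock genes, which respond to handling and stress, moved with the groups and are given beside the early genes. Of 8 tested, 5 rose in dnCEBP against EV, where 0.624% of all genes were called higher, and 4 fell in dnFOS against EV, where 7.76% were called lower. Medians were 0.49 and -0.36. Summed levels were 1825.8 and 1846.2 CPM in EV, as against 2152.3 and 2210.9 for dnCEBP and 1664.3 and 1715.9 for dnFOS. HSPA6, the strictly inducible HSP70 gene, was at 5.50 and 4.21 CPM in EV, 9.03 and 10.7 CPM in dnCEBP and 2.74 and 1.45 CPM in dnFOS. It rose by 1.01 ± 0.22 in dnCEBP (adjusted p = 0.0144) and fell in dnFOS (log2 fold change -1.15 ± 0.28, adjusted p = 0.00502). Without dnCEBP replicate 2 the count of genes called in dnCEBP was 2, likewise without EV replicate 2, and without dnFOS replicate 2 the count in dnFOS was 2. HSPA6 was not called in dnFOS without EV replicate 1 (-0.95) or dnFOS replicate 2 (-0.83), was -1.74 without dnFOS replicate 1, and was not called in dnCEBP without EV replicate 2 (0.83) or dnCEBP replicate 2 (0.89). HSPH1 rose in dnCEBP by 0.52 ± 0.08 (adjusted p = 0.000686). HSPA1A and HSPA1B share near-identical sequence and their split is uncertain. The part of these heat shock genes, and of the myeloid markers above, in the levels of EGR1, EGR2, NR4A1 and MYC was not tested. Log2 fold changes also ran with GC content across genes, which are not independent replicates (Spearman's rho -0.312 in dnCEBP and -0.393 in dnFOS against EV). With that trend removed, EGR1, EGR2 and NR4A1 stayed called lower in dnFOS and MYC in dnCEBP, and NR4A1 became called higher in dnCEBP against EV (0.44, adjusted p = 0.0498).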

How the data were processed

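Total RNA of 6 KO52 libraries (2 EV, 2 dnCEBP, 2 dnFOS) was depleted of ribosomal RNA and sequenced by the authors. The deposited values are raw counts per Ensembl gene ID, 1 table per library, and the submitters' processing notes name Trimmomatic, HISAT2, featureCounts, Subread and hg38; versions, strand setting and treatment of multi-mapped reads are not given in the sources used here, so reads of near-identical or overlapping genes may be dropped or split. The titles gave each library's group and replicate number. Where libraries of a group do not come from separate cultures, p-values measure only technical spread.

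GENCODE 29 (GRCh38) held 58394 of the 60612 IDs and, with a table of gene names, gave 60588 a symbol. The main test used R 4.3.3 and edgeR 4.0.16, with filterByExpr at a minimum count of 10 (15395 of 27870 detected genes kept), TMM scaling (factors 0.956 to 1.05), and a robust quasi-likelihood fit of group means to all 6 libraries with 3 residual degrees of freedom. Contrasts were tested two-sided, p-values adjusted by Benjamini-Hochberg over all genes tested, and genes called at an adjusted p under 0.05. Alternatives were other filters and scalings, leaving out libraries, a replicate block, removal of a GC and length trend, DESeq2 1.42.0 and limma-voom (limma 3.58.1). CPM are TMM-scaled, and per-kilobase levels use merged exon length. Promoter windows came from RefSeq (GRCh38.p14), and motifs were searched on both strands.

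The 10 genes and all lists were chosen with earlier results of these data known. Named were the 10 genes, FOS, FOSB, JUN and JUNB, at most the 3 called genes of each list and comparison with the largest change, and the 5 genes most like the gene with the smallest p in dnFOS against EV. ZFP36L2, NR4A3, the ratios and the dnCEBP value of NR4A2 were added after the values were seen. No set test was run. The value of 1 cell type marker is not reported here.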

Additional observations from a re-analysis of the deposited data

How the results depend on the processing

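Of 17 alternatives, the 10 genes' calls in dnFOS against EV numbered 2 to 4 beside 3, and leaving out any 1 library gave 2, EGR1 and NR4A1, which with MYC in dnCEBP kept their calls throughout. In dnCEBP against EV the count was 1, but 2 with the GC and length trend removed, alone or with the replicate block, when NR4A1 joined MYC, and 1 on leaving out any 1 library. In dnFOS against dnCEBP 5 were called, but 3 with library totals alone, DESeq2 or limma-voom, and 2 to 5 on leaving out a library. The numbers of all genes called, behind the background shares, were less stable: 165 in dnCEBP against EV became 255 without a filter, 257 with only the 2 groups compared, 251 with the trend removed, 488 with the block, 312 with both, and 33 (without dnCEBP replicate 2) to 314 on leaving out a library. Dropping EV replicate 1 gave 81 and EV replicate 2 gave 53. For dnFOS against EV 2309 became 1059 on dropping EV replicate 1 or 972 on dropping dnFOS replicate 2, and for dnFOS against dnCEBP 2259 became 1182 without dnFOS replicate 2 and 1349 without dnCEBP replicate 1. Of the 10 genes' single values over all alternatives, 444 kept direction and side of the threshold, 25 lost a call, 3 gained one and 30 changed sign, and of the other genes' values 1027, 104, 1 and 5.

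The sign changes were all among values not called, and their cause was not tested. IER2 in dnCEBP was 0.019 with the trend removed and 0.023 with the block added, and in dnFOS 0.044 with library totals, 0.088 with the trend removed and 0.089 with the block added. IER3 in dnCEBP was -0.072 by limma-voom. In dnFOS against dnCEBP, DUSP2 was -0.013 without a filter, -0.00244 with median-of-ratios factors, -0.00503 with only the 2 groups and -0.00305 by DESeq2, and with library totals DUSP1 was 0.060 and ZFP36 0.026. Leaving out a library in dnCEBP against EV, log2 fold changes ran from -0.40 to 0.0304 for DUSP1, -0.0110 to 0.29 for EGR2, -0.32 to 0.0160 for IER2, -1.08 to 0.95 for IER3, -0.40 to 0.25 for ZFP36, -0.31 to 0.0749 for FOS, -0.36 to 0.10 for FOSB and -0.59 to 0.0720 for JUN. In dnFOS against EV they ran from -0.13 to 0.0303 for IER2, -1.31 to 0.15 for IER3, -0.49 to 0.15 for ZFP36, -0.0239 to 0.35 for FOS and -0.0935 to 0.36 for FOSB. In dnFOS against dnCEBP they ran from -0.25 to 0.18 for DUSP1, -0.21 to 0.29 for DUSP2, -0.0697 to 0.27 for IER2, -1.49 to 0.34 for IER3 and -0.25 to 0.10 for ZFP36. A fit that left a group with 1 library assumed that it varied like the others.

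Replicate numbers are shared between groups. Deviations of same-numbered libraries correlated at 0.0925, 0.0788 and 0.11 over 12808 genes, not all above 0.1, and the main fit did not pair libraries. All these values were above 0, and the replicate block raised the number of all genes called. It went from 165 to 488 in dnCEBP and from 2309 to 3172 in dnFOS, each against EV, and from 2259 to 3013 in dnFOS against dnCEBP. The labels do not say whether same-numbered libraries were made together. With the replicate block 1, 4 and 5 of the 10 genes were called, the added gene being DUSP2 in dnFOS against EV (-0.51, adjusted p = 0.0347). Depth limits IER3, EGR3 and EGR2, whose dnFOS libraries held 3 to 19 counts.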
